A study of Mus musculus with 2 samples.

Results

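The regions described here are the Usp16 ChIP peaks that lay between genes. A peak was counted as lying between genes when its midpoint was inside no annotated gene of any type and more than 1 kb from every annotated gene end. Of the 5079 peaks listed, 5046 were on assembled chromosomes, and 1060 of these met the rule, which is 21.0% (95% interval 19.9 to 22.2%). The rule used position only, so the scores and widths of these peaks had no part in their choice.

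The list came from c-Kit and Sca-1 positive cells of mouse bone marrow, a fraction enriched for blood stem and progenitor cells. Chromatin was sheared to about 200 bp and precipitated with anti-Usp16 in 1 library and with IgG, the control for non-specific precipitation, in 1 other. Both groups came from mice with the Mx1-Cre transgene, whose promoter answers to interferon, and with loxP sites on both Usp16 alleles. The labels do not say whether Cre had been induced, so whether these cells still made Usp16 is not known, and "Usp16 peak" below means only a peak of the deposited list. There were no replicates and no second peak list, reads of the IgG library were not used here, and the read depth is unknown. No test across samples was possible. The intervals given are 95% intervals for counting error over the peaks of this list (exact binomial for shares and medians, exact Poisson for peaks per Mb), and peaks are not replicates of the experiment.

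Usp16 removes ubiquitin from histone H2A, the mark that Polycomb repressive complex 1 places. DNA between genes includes enhancers and insulators, and it also includes repeats and transcripts that are missing from the annotation. A ChIP peak there cannot be assigned to a gene by position alone, so each peak is placed below by its distance to the nearest annotated ends. The score beside each peak is a number from the peak caller, with no unit. Its lowest listed value was 50, so weaker sites are not in the list.

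For 7 of the 1060 peaks the nearest annotated gene was a microRNA gene. This is 0.660% (0.266 to 1.36%), below the 2.46% that microRNA genes make up of annotated genes. The latter share does not allow for genes that lie inside or close to other genes. The widest of the 7 peaks was on chromosome 8 at 84197205 to 84198999 (mm10), 1795 bp wide with a score of 69.9. It lay 10.4 kb upstream of Mir23a, the first gene of the plus-strand Mir23a, Mir27a and Mir24-2 cluster, a microRNA cluster expressed in blood cells. The nearest coding gene was Zswim4, at 12.8 kb. The highest-scoring of the 7 peaks, 82.2, was 7.02 kb downstream of Mir125b-2, whose family regulates blood cell differentiation, on chromosome 16 at 77652832 to 77653894. Mature sequences from RefSeq (GRCm38.p6) follow 5′ to 3′, with the seed, bases 2 to 8, which pairs with target messages, in capitals. They are shown for these 2 loci because both are named microRNA loci of blood cells.
miR-125b-5p: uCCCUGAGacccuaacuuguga
miR-125b-2-3p: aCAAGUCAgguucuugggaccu
miR-23a-5p: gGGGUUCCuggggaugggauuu
miR-23a-3p: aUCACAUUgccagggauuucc
miR-27a-5p: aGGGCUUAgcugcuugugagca
miR-27a-3p: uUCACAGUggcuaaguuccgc
miR-24-2-5p: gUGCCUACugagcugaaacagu
miR-24-3p: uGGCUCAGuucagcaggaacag

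None of these seeds is shared within or between the 2 loci. The closest are those of miR-23a-3p and miR-27a-3p, which differ at 1 base. The other 5 peaks beside microRNA genes scored between 55.5 and 63.6. A pair of them lay 33.7 and 42.5 kb upstream of Mir6420, and the others were 2.77 kb from Mir5112, 5.88 kb from Gm51286 and 44.3 kb from Mir6354. Mature sequences were found for 5 of the 6 microRNA genes. The bases under the peaks themselves were not used here.

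Most peaks between genes were far from any coding gene. The median distance to the nearest coding gene end was 38.0 kb, with quartiles of 10.1 and 151.9 kb and a range of 1.005 to 2102 kb. By distance to a coding gene end, 264 peaks (24.9%, 22.3 to 27.6%) lay at 1 to 10 kb, 312 (29.4%, 26.7 to 32.3%) at 10 to 50 kb and 484 (45.7%, 42.6 to 48.7%) beyond 50 kb. There were 74 peaks more than 500 kb away and 15 more than 1 Mb away. To the nearest annotated gene of any type the median was shorter, 13.9 kb, and 432 of the 1060 peaks had such a gene within 10 kb.

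The bands hold very different amounts of DNA, and per length the order was the reverse. Between the first and last annotated gene of each chromosome, peaks lay at 1.42 per Mb (1.25 to 1.60) at 1 to 10 kb from a coding gene end. The density was 0.961 per Mb (0.858 to 1.07) at 10 to 50 kb and 0.548 per Mb (0.50 to 0.599) beyond 50 kb. The 3 intervals did not overlap. Inside the nearest band the density was about level: 1.55 per Mb (1.12 to 2.08) at 1 to 2 kb, 1.41 (1.15 to 1.72) at 2 to 5 kb and 1.38 (1.14 to 1.64) at 5 to 10 kb, with overlapping intervals. Assembly gaps and unmappable sequence were not removed from these lengths.

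**Figure D1:**
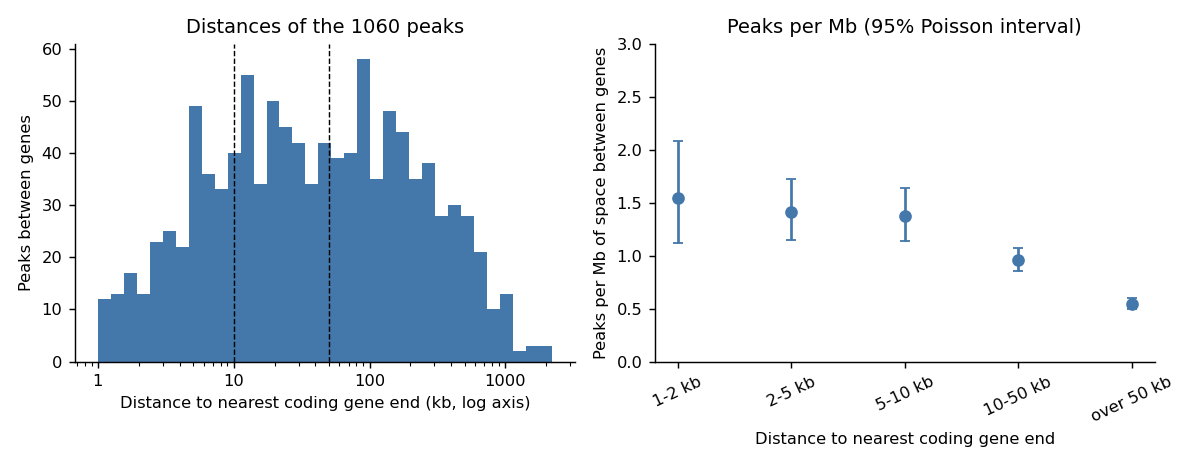
Distance of the 1060 peaks between genes to the nearest coding gene end (left, histogram on a log axis, dashed lines at 10 and 50 kb) and peaks per Mb of the space at each distance (right, points with 95% Poisson intervals). The density falls from 1.55 per Mb at 1 to 2 kb to 0.548 per Mb beyond 50 kb.

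Peaks between genes were on the whole weaker and narrower than those at gene ends. Their median score was 64.5 (63.0 to 66.0), against 75.3 (73.6 to 77.2) for the 2677 peaks within 1 kb of an annotated end. The median width was 580 bp (568 to 590), against 785 bp (768 to 799) at gene ends. Peaks inside coding genes, 1095 in number, were nearer in both measures, with a median score of 66.2 (64.6 to 67.7) and a median width of 615 bp (603 to 631). The 214 peaks inside other genes had medians of 65.9 (62.1 to 71.3) and 605.5 bp (570 to 628). The score interval between genes overlapped those of both classes inside genes, and the width interval only that inside other genes. Peaks of 1000 bp or wider made up 6.98% (74 of 1060, 5.52 to 8.69%) of those between genes and 26.3% (24.7 to 28.0%) of those at gene ends, with 18.3% over all assembled chromosomes. A score of 100 or more was reached by 15.4% (163 of 1060, 13.3 to 17.7%) between genes and by 28.8% (27.1 to 30.6%) at gene ends, with 23.3% over all.

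At the top of the score range the intervals of both classes overlapped. A score of 200 or more was reached by 45 peaks between genes, 4.25% (3.11 to 5.64%), and by 113 peaks at gene ends, 4.22% (3.49 to 5.05%). Over all peaks on assembled chromosomes it was 4.06%, with 3.47% inside coding genes and 4.21% inside other genes. A score of 300 or more was reached by 21 peaks between genes, 1.98% (1.23 to 3.01%), and by 40 at gene ends, 1.49% (1.07 to 2.03%), with 1.72% over all. Of the whole list, contigs included, peaks between genes held 4 of the 10 highest scores (40%, 12.2 to 73.8%) and 7 of the 20 highest (35%, 15.4 to 59.2%). They were 22 of the 100 highest (22%, 14.3 to 31.4%) and 131 of the 1000 highest (13.1%, 11.1 to 15.4%). These are to be read against 21.0%, their share of all peaks on assembled chromosomes. Of these intervals with contigs included, only that of the 1000 highest excluded it. Without the contigs, 9 of the 20 highest lay between genes (45%, 23.1 to 68.5%), an interval above 21.0%. For the 10 and the 100 highest without contigs the intervals included 21.0% (12.2 to 73.8% and 15.2 to 32.5%). Those of the 500 and the 1000 highest lay below it (14.2%, 11.3 to 17.6%, and 13.5%, 11.4 to 15.8%).

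The high scorers between genes were narrower than those at gene ends. The 45 peaks with a score of 200 or more had a median width of 620 bp (quartiles 536 and 708), and 5 of them reached 1000 bp. This was somewhat wider than the 897 peaks between genes that scored under 100, with a median of 569 bp. At gene ends the 113 peaks with such scores had a median width of 993 bp (quartiles 770 and 1487), and 56 reached 1000 bp. Inside coding genes the median of 38 such peaks was 609.5 bp (quartiles 545 and 837.5). For 9 such peaks inside other genes it was 621 bp, so these widths were not particular to peaks between genes. Read the other way, the 74 wide peaks between genes had a median score of 80.4 and none scored above 419. Across the 1060 peaks, width and score were only weakly related, with a Spearman rho of 0.255, and at gene ends it was 0.204. These are descriptions over peaks of 1 library.

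**Figure D2:**
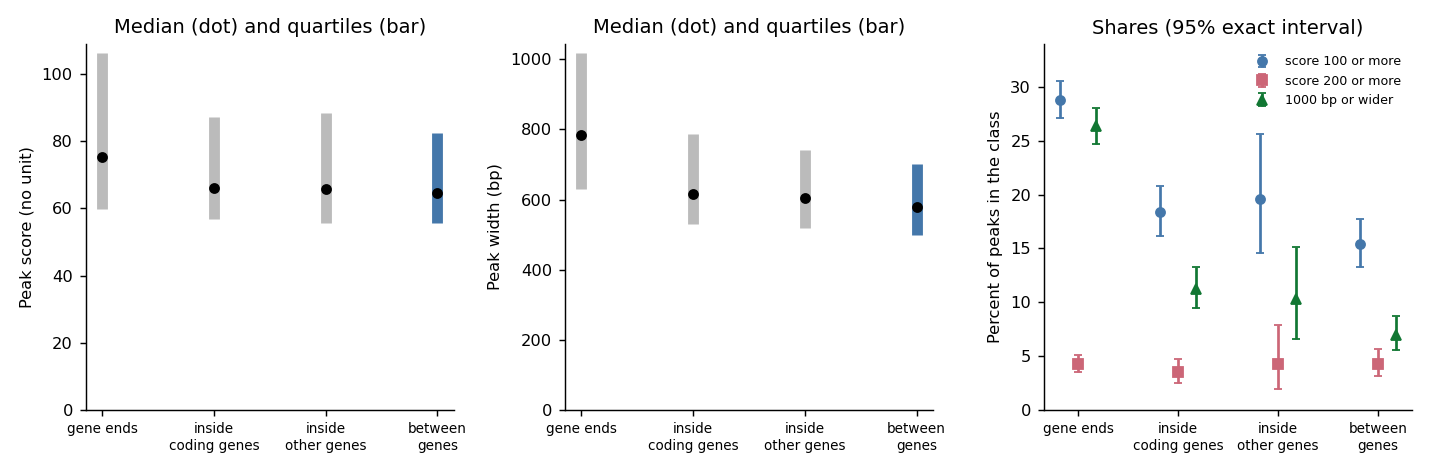
Score (left) and width (middle) of peaks by position class, with the median as a dot and the quartiles as a bar, and the percent of each class with high scores or large width (right, points with 95% exact intervals). Peaks between genes have the lowest medians, 64.5 and 580 bp, but the interval of the score median overlaps those of both classes inside genes. The share with a score of 200 or more is 4.25% between genes and 4.22% at gene ends. It is 3.47% inside coding genes and 4.21% inside other genes.

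Within the space between genes, high scores were commonest far from coding genes. A score of 200 or more was found for 6 of 264 peaks at 1 to 10 kb (2.27%, 0.839 to 4.88%), 7 of 312 at 10 to 50 kb (2.24%, 0.907 to 4.57%) and 32 of 484 beyond 50 kb (6.61%, 4.57 to 9.21%). The interval of the farthest band overlapped that of the nearest band, and its lower bound was level with the upper bound of the middle band. Median scores rose less, from 61.9 (59.6 to 64.5) at 1 to 10 kb to 64.2 (62.3 to 67.4) at 10 to 50 kb and 66.1 (64.0 to 69.3) beyond 50 kb. The intervals of the 3 bands overlapped. Median widths were nearly equal in the 3 bands, at 576, 584 and 580 bp.

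The share of high scores differed by the kind of gene nearest to a peak, while median scores were close. The medians were 63.5 beside coding genes, 64.5 beside lncRNA genes and 68.1 beside pseudogenes. Among peaks whose nearest annotated gene was a pseudogene, an inactive copy of a gene, 19 of 239 (7.95%, 4.85 to 12.1%) scored 200 or more. The count was 13 of 328 (3.96%, 2.13 to 6.68%) beside a lncRNA gene, which makes a long transcript without a protein, and 8 of 417 (1.92%, 0.832 to 3.75%) beside a coding gene. Small nuclear RNA genes, which make RNAs of the spliceosome, stood nearest to 24 peaks, and 4 of these scored 200 or more (16.7%, 4.74 to 37.4%). The intervals for pseudogenes and coding genes did not overlap. Peaks beside pseudogenes were also farther from the gene, with a median of 22.4 kb against 9.13 kb for coding genes and 14.9 kb for lncRNA genes. The type of the nearest gene was not separated from the distance to coding genes.

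The highest score of the whole list, 2409, belonged to a peak between genes. It was 608 bp wide, on chromosome X at 170757968 to 170758575, 80.2 kb beyond Asmt, which encodes the last enzyme of melatonin synthesis. No annotated gene follows Asmt on the X chromosome, so this is the single peak of the 1060 outside the span of annotated genes. The peak with the next highest score of the list, 926, was 642 bp wide on chromosome 14 at 86198725 to 86199366. It lay 5.44 kb from the pseudogene Gm49060, and its nearest coding gene, the formin gene Diaph3, was 456 kb away.

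The other 8 of the 10 highest scores between genes ran from 472 to 687. A peak on chromosome 8 at 83756532 to 83757263 scored 687 and was 15.6 kb from Adgre5, which encodes the leukocyte adhesion receptor CD97, with the lncRNA gene Gm42030 5.12 kb away. One on chromosome 17 at 73262354 to 73263117 scored 665 and was 19.4 kb past the 3′ end of Lclat1, an acyltransferase gene of cardiolipin remodelling, and 8.59 kb from the lncRNA gene E330032C10Rik. A Y-linked peak at 4036424 to 4036989 scored 644 and was 15.6 kb from the vomeronasal receptor pseudogene Vmn2r-ps140 and 253 kb from Gm3376. On chromosome 3, at 149052252 to 149053062, a peak of 620.2 lay 63.6 kb from the start side of Adgrl2, a latrophilin receptor gene. Chromosome 2 held 2 of them. The one at 92093317 to 92093972 scored 588 and was 69.5 kb from Creb3l1, a transcription factor gene of the secretory pathway. The other, at 57629229 to 57629950, scored 534 and was 259 kb from Gpd2, the mitochondrial glycerol-3-phosphate dehydrogenase gene. On chromosome 1 at 189113636 to 189114311 a peak of 536 lay 94.0 kb from the potassium channel gene Kcnk2.

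The last of the 10 stood beside Nkx2-6, a homeobox gene of heart and pharynx development, on chromosome 14 at 69161768 to 69162254. It scored 472 and was 487 bp wide, 9.79 kb from Nkx2-6 and 2.45 kb from the ribosomal protein pseudogene Rps2-ps5. A separate peak of 81.2 began just beyond it, at 69162317 to 69162732. All 10 were between 487 and 811 bp wide, so none was a wide peak. Of their nearest annotated genes, 4 were pseudogenes (Gm49060, Vmn2r-ps140, Gm13533 and Rps2-ps5), and only Asmt was a coding gene.

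Among peaks at 1 to 10 kb from a coding gene end, the next highest score after that beside Nkx2-6 was 419, for a 1083 bp peak on chromosome 11 at 54139872 to 54140954. It was 8.74 kb past the 3′ end of P4ha2, a collagen prolyl hydroxylase gene, and 1.46 kb from the lncRNA gene Gm12223. The third was 343, on chromosome 17 at 19658367 to 19658795, 1.82 kb from the start of the vomeronasal receptor gene Vmn2r102. At 10 to 50 kb the third highest, after those beside Adgre5 and Lclat1, was 301.5, for a 1391 bp peak 19.1 kb from Kcnk18, another potassium channel gene.

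**Figure D3:**
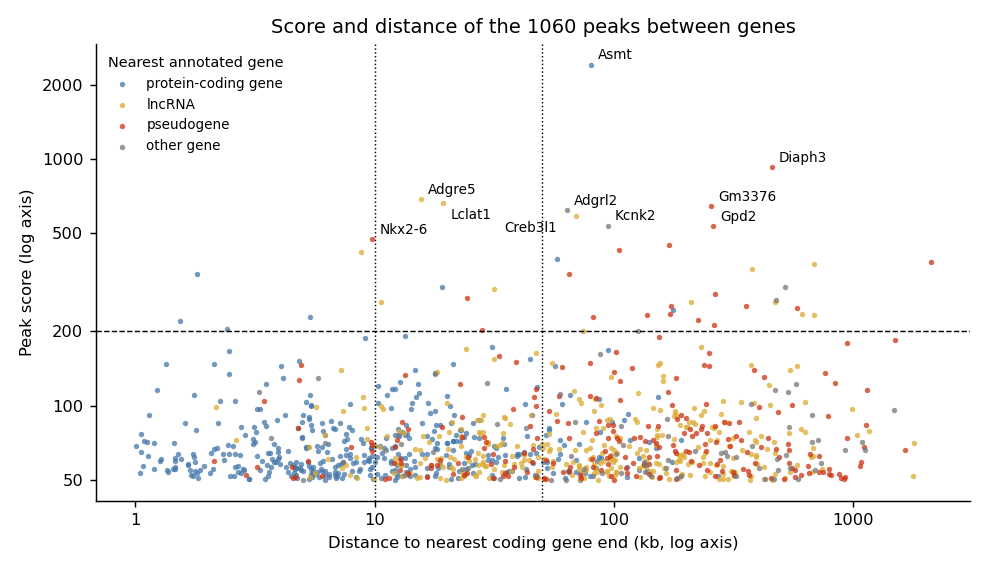
Score of each of the 1060 peaks between genes against its distance to the nearest coding gene end, both on log axes, coloured by the type of the nearest annotated gene. The dashed line marks a score of 200 and the dotted lines 10 and 50 kb; the 10 highest peaks carry the name of their nearest coding gene, and 32 of the 45 peaks at 200 or more lie beyond 50 kb.

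The 5 peaks farthest from a coding gene lay 1486 to 2102 kb away and did not share a score level. The farthest, 2102 kb from the protocadherin gene Pcdh9 on chromosome 14 at 90910925 to 90911512, scored 382. Peaks at 1783 kb from Efna5 and 1642 kb from Efnb2, both ephrin ligand genes, scored 70.8 and 66.2. A peak 1766 kb from G6pd2, a retrocopy of the glucose-6-phosphate dehydrogenase gene, scored 51.7. One at 1486 kb from the cadherin gene Cdh11 scored 185.

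Within 5 kb of genes, peaks lay more often on the 3′ side. The strand was known for the nearest coding gene of 835 of the 1060 peaks, from a promoter table that covered 79.9% of coding genes. At 1 to 2 kb, 24 of 35 peaks (68.6%, 50.7 to 83.1%) were on the 3′ side, where 50.6% of the length lay. At 2 to 5 kb it was 44 of 73 (60.3%, 48.1 to 71.5%), where 48.9% of the length lay. Over 1 to 5 kb together the share was 63.0% (68 peaks against 40 on the 5′ side, 53.1 to 72.1%) for 49.4% of the length, so the interval excluded the share of length. The cut at 5 kb is not one of the main distance bands. Over the whole band of 1 to 10 kb the share was 55.4% (112 peaks against 90, 48.3 to 62.4%) for 48.4% of the length, which that interval included. From 5 to 10 kb, 46.8% (36.4 to 57.4%) were on the 3′ side, and beyond 50 kb 47.5% (42.4 to 52.7%), both with intervals that included the share of length (47.3 and 47.7%).

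As density, the 3′ side at 1 to 2 kb held 2.13 peaks per Mb (1.37 to 3.17) and the 5′ side 1.0 (0.499 to 1.79). At 2 to 5 kb the values were 1.60 (1.17 to 2.15) and 1.01 (0.679 to 1.46). In both bands the intervals of the 2 sides overlapped. The peaks of the 3′ side at 1 to 5 kb scored a median of 58.6, and those of the 5′ side 67.5, so the more numerous side was not the one with the higher scores. Of the 703 peaks with known strands on both flanking coding genes, 364 (51.8%) lay between genes in the same direction, 185 (26.3%) between 2 starts and 154 (21.9%) between 2 ends. The length of space in each of these arrangements was not measured, so these shares have no background here.

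**Figure D4:**
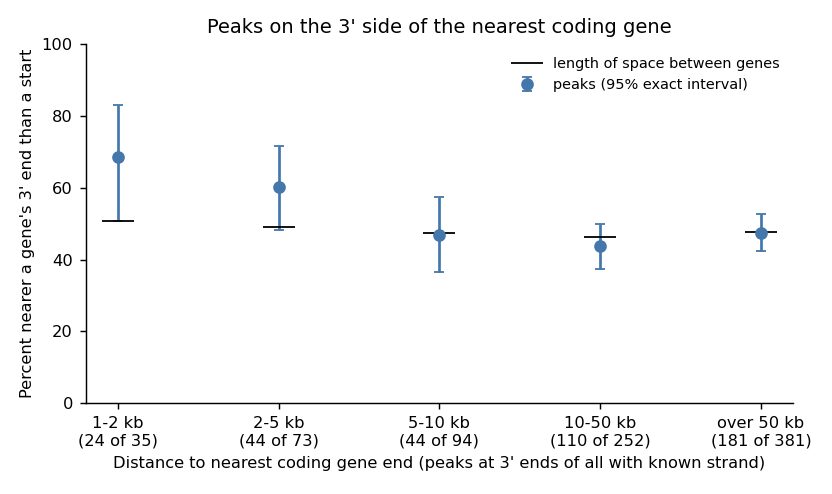
Percent of peaks nearer to the 3′ end than to the start of the nearest coding gene, by distance band (points with 95% exact intervals, counts under the axis), with the share of the length of the space between genes on the 3′ side as a black line. The share of peaks is 68.6% at 1 to 2 kb and 47.5% beyond 50 kb, where the length shares are 50.6 and 47.7%.

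Several of the widest peaks ran on from the 3′ end of a gene. The 4557 bp peak on chromosome 11 at 116018025 to 116022581 overlapped the last 621 bp of H3f3b, a gene of the replacement histone H3.3, and reached 3.94 kb past its 3′ end. Its score was only 57.8. The 3079 bp peak at 120342678 to 120345756 on the same chromosome overlapped the last 70 bp of Actg1, the cytoplasmic gamma-actin gene, and reached 3.01 kb beyond it, with a score of 55.5. On chromosome 19, a 2986 bp peak at 5792894 to 5795879 overlapped the last 190 bp of Malat1, the gene of an abundant nuclear lncRNA, reached 2.80 kb beyond it and scored 80.9. These were the 3 peaks between genes that overlapped an annotated gene, and 24 of the 1060 had an edge within 1 kb of a gene end although their midpoint was farther out.

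Beside these, wide peaks stood free of the gene at other 3′ ends. The 2275 bp peak on chromosome 2 at 32965526 to 32967800 covered 1.48 to 3.75 kb past Rpl12, a ribosomal protein gene, and scored 63.7, while Rpl12 also had a separate peak of 128 at one of its ends. A 1401 bp peak of 52.5 covered 1.003 to 2.403 kb past Ptma, the prothymosin alpha gene, which had a separate gene-end peak of 56.0. Other wide peaks lay past Vpreb3, a gene of the pre-B cell receptor pathway, with a score of 98.6, and past Cnot10, a subunit gene of the CCR4-NOT deadenylase, with 53.2. Upstream of starts, wide peaks lay beside Slc17a7, a glutamate transporter gene, Mef2d and Foxo3, both transcription factor genes, and Crb2, a cell polarity gene, with scores of 79.9 to 92.0. At 1 to 5 kb from coding genes of known strand, 6 of 68 peaks on the 3′ side and 4 of 40 on the 5′ side were 1000 bp or wider, so width itself did not go with the side.

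**Figure D5:**
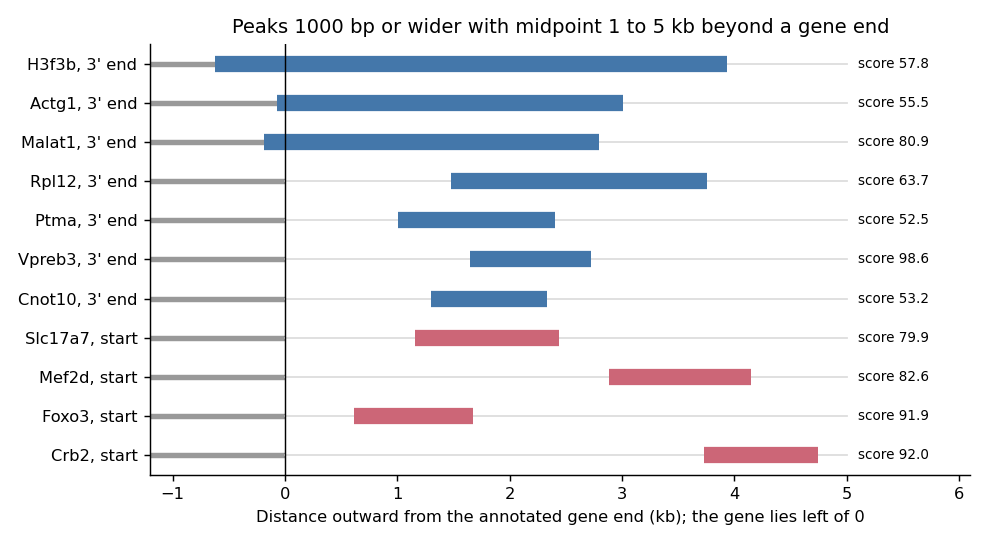
Extent of 11 peaks of 1000 bp or wider, in kb outward from the gene end (blue past a 3′ end, red upstream of a start, grey the gene). They are those with a midpoint 1 to 5 kb beyond a coding gene of known strand, with the one at the lncRNA gene Malat1 added. Wide peaks beside other non-coding genes were not included. The peaks at H3f3b, Actg1 and Malat1 cross the gene end and reach 3.94, 3.01 and 2.80 kb past it.

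The widest peak between genes, 5017 bp, was also the widest of the list, where the widest contig peak had 4401 bp, and it lay farther from genes. It lay on chromosome 11 at 3099940 to 3104956, 21.6 kb from the pseudogene Pisd-ps1 and 29.4 kb from Sfi1, a centrosomal gene, and scored 123. The fifth widest, 2374 bp with a score of 229.6, was on chromosome 4 at 3089322 to 3091695 near Vmn1r-ps2. Both lie close to the centromeric end of the assembled sequence. In all, 10 of the 1060 peaks began within the first 3.3 Mb of their chromosome, 3 of them on chromosome 4 near Vmn1r2 and 3 on chromosome 17 near Gm10232, and their scores ran from 51.5 to 229.6. Over all positions 15 peaks of the list began there.

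No coding gene collected many of these peaks. The 1060 peaks had 902 different nearest coding genes, 4.12% of the 21887 coding genes, and 785 of these were nearest to 1 peak, 88 to 2, 20 to 3, 6 to 4 and 3 to 5. The genes with 5 were Mctp2, Zfp703 and Usp25. The peaks of Mctp2, a C2-domain membrane protein gene, were 93.1 to 677 kb away and scored 62.2 to 146. Those of Zfp703, a zinc finger gene of the NET family, were 63.0 to 383 kb away, with scores from 53.9 to 102. Those of Usp25, a ubiquitin-specific protease gene like Usp16, were 93.5 to 537 kb away with scores of 51.1 to 94.9, and the farthest of them is the peak beside Mir125b-2.

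Slitrk1, Nuf2, Tle3, BC052040, Epha7 and Efna5 were each nearest to 4 peaks. Tle3, a Groucho-family corepressor gene, had the closest of these, at 10.9 kb from its start, and all 4 of its peaks were on the start side with scores of 50.2 to 96.7. Epha7, an ephrin receptor gene, had its 4 on the 3′ side at 151 to 653 kb, with scores of 50.3 to 76.2. For Slitrk1, a neuronal adhesion gene, scores ran from 51.1 to 136 over 62.2 to 1125 kb, and for Efna5 from 51.8 to 70.8 over 89.1 to 1783 kb. For Nuf2, a kinetochore gene, they ran from 56.5 to 117. Adgrl2 was nearest to 3, of which the highest is the peak of 620.2 given above and the other 2 scored 51.5 and 57.0. These counts were not adjusted for the length of space beside a gene.

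The spacing of the peaks depended on their distance from coding genes. The nearest other listed peak was a median of 138 kb away, against 70.5 kb for peaks at gene ends. Of the 1060, 62 (5.85%, 4.51 to 7.44%) had one within 10 kb, against 10.1% at gene ends. Peaks inside other genes had similar values, 136 kb and 6.54% (3.62 to 10.7%), so this spacing was not particular to peaks between genes. Inside coding genes the values were 99.98 kb and 6.21% (4.85 to 7.81%), and over all assembled chromosomes 89.5 kb and 8.22%. For peaks between genes at 1 to 10 kb from a coding gene, the values were near those of gene ends. Their median was 75.1 kb, with 12.1% (8.44 to 16.7%) within 10 kb. The medians were 114 kb at 10 to 50 kb and 221.8 kb beyond 50 kb. When neighbours at most 50 kb apart were joined, 118 peaks (11.1%) formed 57 loci, of which 4 held 3 peaks and the rest held 2. Peaks stood on both sides of Ptma, on chromosome 1 between 86486963 and 86533115, with scores of 151, 50.9 and 52.5. Those near Ank, a pyrophosphate transport gene, were far from it, at 196 to 232 kb, and had nearly equal scores of 80.8, 80.9 and 77.8. The locus at Tle3, on chromosome 9 between 61299666 and 61361876, had scores of 50.2, 89.4 and 96.7. The fourth, on chromosome 17 between 3019882 and 3023154, spanned only 3.27 kb near Gm10232, with 57.8, 83.2 and 65.5. Among pairs, the locus with the highest summed score was that on the Y chromosome near Gm3376, with 644 and 73.3.

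Nearest genes with a peak of their own were about as common as over all coding genes. A coding gene was counted as having a gene-end peak when a listed peak overlapped the 1 kb before or after an annotated end of it, which was true of 13.9% of coding genes. The nearest coding gene had one for 148 of the 1060 peaks (14.0%, 11.9 to 16.2%). By band the share was 19.3% (51 of 264, 14.7 to 24.6%) at 1 to 10 kb, 11.9% (37 of 312) at 10 to 50 kb and 12.4% (60 of 484) beyond 50 kb. Part of the share in the nearest band came from peaks between genes whose own edge reached into the window. When only peaks of the other position classes were counted, 13.8% of coding genes had one, and so had the nearest coding gene of 134 of the 1060 peaks (12.6%, 10.7 to 14.8%) and of 37 of 264 (14.0%, 10.1 to 18.8%) at 1 to 10 kb.

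A few genes of the blood lineages were the nearest gene of a peak. Of 28 transcription factor genes of stem and progenitor cells, 2 were nearest to a peak between genes (7.14%, 0.877 to 23.5%), to be read against the 4.12% of all coding genes. They were Ikzf2, the Helios gene, 74.3 kb from a peak of 201.2 on chromosome 1 at 69456585 to 69457147, and Zbtb16, the PLZF gene, 5.40 kb from a peak of 52.9. The myeloid list gave 1 of 18, Cebpe, a granulocyte differentiation factor gene, at 2.14 kb with a score of 67.0. Among 18 lymphoid genes there was Lef1, a Wnt pathway transcription factor gene, 3.81 kb from a peak past its 3′ end with a score of 58.9. Of 15 erythroid genes only Bcl11a, the fetal globin repressor gene, was nearest to a peak, and that peak was 927 kb away. None of 14 genes of the sort markers and progenitor surface proteins, of 12 megakaryocyte genes and of 18 genes of the cell cycle, CDK inhibitors and p53 was nearest to one. With lists this short, intervals reached up to between 18.5 and 26.5% even where no gene was found, so no list of blood genes was shown to differ from the 4.12% background.

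The marker list of other marrow cells, stroma and endothelium, gave 3 of 14 genes (21.4%, 4.66 to 50.8%), an interval above the 4.12% of all coding genes, though with 3 genes and no adjustment over the 15 lists. They were Sp7, the osteoblast factor gene, at 10.54 kb with a score of 69.0, Col1a2, a type I collagen gene, at 15.7 kb with 63.7, and Kdr, the VEGF receptor gene of endothelium, at 10.7 kb with 50.8. Of 24 genes of Polycomb complexes, BAP1 and the H2A deubiquitinases, Jarid2, a subunit gene of Polycomb repressive complex 2, was the only one, 368 kb from a peak of 50.1. That peak lay 1.47 kb from the lncRNA gene Gm33958, and Jarid2 had a gene-end peak as well. Of 47 ubiquitin-specific protease genes, 3 were nearest to a peak (6.38%, 1.34 to 17.5%): Usp25, Usp12 at 68.1 kb with a score of 115, and Usp24 at 87.3 kb with 58.6.

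Among the large families, homeobox and other developmental transcription factor genes gave 12 of 187 (6.42%, 3.36 to 10.9%). Those with the highest scores were Nkx2-6, Sox5 with 95.1 at 238 kb, Foxo3 with 91.9 at 1.14 kb upstream of its start, and Tbx18 with 81.5 at 53.4 kb. Numbered Zfp zinc finger genes gave 15 of 367 (4.09%, 2.31 to 6.65%), led by Zfp326 with 213 at 261 kb and Zfp395 with 140.0 at 14.7 kb. Genes whose symbols follow the pattern of ribosomal proteins gave 5 of 175 (2.86%, 0.934 to 6.54%), among them Rpl34 with 101 at 88.5 kb, Rps12 with 52.3 at 13.4 kb and Rps6ka1, which encodes a kinase and not a ribosomal protein. The intervals of these 3 families all included 4.12%.

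Chemosensory receptor genes, which work in the nose and lie in large clusters, fell below the background. Olfactory receptor genes gave 11 of 1110 (0.991%, 0.496 to 1.77%) and vomeronasal receptor genes 4 of 355 (1.13%, 0.308 to 2.86%), both with intervals under 4.12%. For all 15 lists, the 4.12% does not allow for the length of space beside each gene or for unmappable sequence. Whether these account for the low shares here was not tested. The highest scores among them were 343 beside Vmn2r102, 229.6 in the region of Vmn1r2 and 166 at 2.47 kb past Olfr806.

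By type of nearest annotated gene, 417 of the 1060 peaks (39.3%) had a coding gene, 328 (30.9%) a lncRNA gene and 239 (22.5%) a pseudogene. These types make up 43.8, 25.5 and 19.9% of annotated genes, shares that do not allow for genes inside or close to other genes. A small nucleolar RNA gene was nearest to 30 peaks (2.83%) and a small nuclear RNA gene to 24 (2.26%), types that make up 2.68 and 2.01% of annotated genes. A tRNA gene was nearest to 3 (0.283%, 0.0584 to 0.825%, against 0.817% of genes), at 2.96 to 6.02 kb. One of these, 6.02 kb from the aspartate tRNA gene n-TDgtc1, scored 163. A 1076 bp peak with a score of 135 lay 3.29 kb from Rny3, a Y RNA gene.

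Density varied among chromosomes. On the autosomes it ran from 0.535 per Mb of space between genes on chromosome 5 (38 peaks, 0.378 to 0.734) to 1.31 on chromosome 9 (70 peaks, 1.02 to 1.65), with a median of 0.827 over the autosomes. The share of a chromosome's peaks that lay between genes ran from 12.3% on chromosome 5 to 28.7% on chromosome 16. The X chromosome had 32 peaks between genes, 0.274 per Mb (0.186 to 0.389), an interval that among the autosomes overlapped only that of chromosome 5, and they were 35.2% (25.4 to 45.9%) of its 91 peaks. All 7 peaks on the Y chromosome lay between genes, at 0.0807 per Mb (0.0324 to 0.166). The sex of the mice is not given in the labels used here, and copy number was not measured. On the autosomes alone the densities in the 3 distance bands were 1.52, 1.10 and 0.615 per Mb, so the fall with distance was also present without the sex chromosomes.

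The limit of 1 kb cut through a continuous range. Just inside the rule were a peak 1005 bp from Gprin1 with a score of 68.9 and one 1042 bp from the pseudogene Gm10144 with 52.4. Just outside it were a peak 995 bp from Rpl3 with a score of 60.6 and one 977 bp from Bves with 69.1. There were 79 peaks outside genes at 0.5 to 1 kb from an end, with a median score of 65.8 and a median width of 691 bp. The next 0.5 kb outward held 40, with 61.7 and 580 bp.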

How the data were processed

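The deposited file is 1 list of peaks with a score each, which the authors made with MACS in Galaxy, per the file headers. Bowtie, Picard and mm10 are named in the submitters' processing notes, versions not included. Which MACS release and settings were used, and how the IgG library entered, is not given in the sources used here. Scores were compared only within this list.

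Starts were made 1-based and midpoints were compared with 49943 RefSeq genes of GRCm38.p6, the assembly mm10 names. Strand came from a RefSeq promoter table. Peaks joined at gaps of at most 50 kb formed loci. Lengths were measured every 20 bp between the first and last gene of a chromosome. The annotation code was tested on simulated data. Python 3.11.15, pandas 2.3.3, numpy 2.4.6, scipy 1.17.1 and matplotlib 3.10.9 were used.

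The text names the 10 highest scores, the 3 highest per band, the 5 farthest, the 5 widest, the 5 largest loci, the 10 genes nearest to most peaks, up to 4 genes of each of 15 lists and the 2 peaks on each side of 1 kb. Wide peaks 1 to 5 kb beyond coding genes, the wide peak at Malat1, microRNA, tRNA and Y RNA neighbours and peaks near chromosome starts were chosen after their values were seen. The members, lists and rules were chosen with earlier results of these data known. Alternatives were other margins, gene sets, score limits and gaps.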

Additional observations from a re-analysis of the deposited data

Results flagged for a closer look

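Outside the assembled chromosomes the list held 33 peaks on 9 contigs, which have no place in the description of the space between genes. Their median score was 108 (50.4 to 643) and their median width 1294 bp. No control level was available for them here.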

How the results depend on the processing

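Of 79 values recomputed under 13 other settings, 54 moved by less than their interval or by under 1.5 times and 25 by more. Keeping the peaks that scored no less than the list's median left 425 peaks between genes, 16.9% of those kept, with 20.9% at 1 to 10 kb and 50.4% beyond 50 kb, a median score of 89.2, a median width of 626 bp, 13 loci and 8.0% with a peak at the nearest coding gene. With protein-coding genes only, 30.1% of peaks lay between genes, 42.4% of them beyond 50 kb, with a median width of 598 bp and 109 loci. Without Gm, LOC and Rik gene models the share was 29.1% and the loci 99. A margin of 500 bp gave 22.6%, with 28.4% at 1 to 10 kb and 17.7% with a peak at the nearest coding gene. Any of the 79 peaks it added that lay within 1 kb of a coding gene end counted as that gene's end peak. A margin of 5 kb gave 16.1%, with 11.8, 32.8 and 55.4% in the 3 bands and 11.4% with a peak at that gene. A gene-end window of 5 kb gave 28.4% with a peak at that gene. Each of the 142 peaks at 1 to 5 kb from a coding gene end then counted as that gene's own end peak. The share of all coding genes with a peak in such a window is not given here, so the rise cannot be read as a result. Joining peaks at 10 kb gave 14 loci, and at 100 kb 100 loci. Counting only gene-end peaks of other position classes was added after the data were seen. No paired analysis was possible because there was 1 library per antibody. The list's floor of 50 and the unknown depth limit what can be said of weaker sites.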
